A study of Mus musculus with 5 samples.

Results

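Oncofetal genes are active in the fetal liver, are switched off after birth and can return in liver cancer, and progenitor markers label cells that can form both hepatocytes and bile duct cells. 10 such genes were followed here, chosen by name and read from their Ensembl rows in a table of 55397 genes: Afp, Gpc3, Igf2bp1, Igf2bp2, Igf2bp3, Lin28b, Hmga1, Hmga2, Cd24a and Prom1. The libraries were bulk RNA-seq of liver tumors from female C57BL/6N mice injected at 8 weeks of age through the tail vein under hydrodynamic pressure, a route that brings plasmids into hepatocytes. All 5 tumors carried Akt and the Notch1 intracellular domain (NICD) behind the EF1a promoter, inserted by Sleeping Beauty transposase, a pairing that gives cholangiocarcinoma (CCA), a cancer with bile duct features. The NICD plasmid also carried rtTA, the protein through which doxycycline acts. The 2 Control tumors received a doxycycline-responsive plasmid with GFP alone. The 3 Prox1 OE tumors received the same plasmid with FLAG-tagged mouse Prox1 and GFP. Both groups were given a diet with 6.25% doxycycline from day 21. In the Prox1 OE tumors it switched Prox1 on between weeks 3 and 4. The labels do not say whether the tumors of a group came from separate mice, so that p-values measure only the spread between these samples, and tumors were taken either once Prox1 had been on for a week or when a humane endpoint was reached, without a note of which applied.

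AFP is a serum protein of the fetal liver and yolk sac, made from a gene beside albumin. GPC3 is a cell surface glypican used to recognize hepatocellular carcinoma in pathology. LIN28B blocks the maturation of let-7, a microRNA family that rises as tissues mature and that represses growth genes, among them those for the RNA-binding proteins IGF2BP1 to IGF2BP3 and the chromatin protein HMGA2. CD24 and prominin 1 (Prom1, also known as CD133) are surface proteins of liver progenitors and bile duct cells and are widely used to sort tumor cells with stem cell features.

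Matches to let-7 were looked up in the sequence of these genes, and a match alone does not show that let-7 acts on them. Mature let-7a, taken from RefSeq (GRCm38.p6, chr13:48538239-48538260, minus strand), is printed with its seed, bases 2 to 8, in capitals.
let-7a-5p: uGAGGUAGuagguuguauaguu
Of 11 mature let-7 and miR-98 sequences in RefSeq, 10 held this seed. The matching site in a transcript is CTACCTCA, the complement of the seed followed by A, and it was searched for on the sense strand in the longest annotated 3′ UTR of each gene (GENCODE M21, mm10). Of the 10 markers, 5 held it, with 7 sites in all, and the first site in the UTR of each is shown with the 8 matching bases in capitals and 10 bases on either side.
Lin28b, chr10:45381012-45381039, minus strand: ggcgggaagtCTACCTCAtgcaagcaca
Hmga2, chr10:120364214-120364241, minus strand: cattcaatttCTACCTCAgcatcagttg
Igf2bp1, chr11:95961768-95961795, minus strand: gcgaagtaaaCTACCTCAaggtgtgaag
Igf2bp2, chr16:22059463-22059490, minus strand: caaataaaagCTACCTCAggtgtttttt
Igf2bp3, chr6:49086777-49086804, minus strand: ttttactcaaCTACCTCAggtattcagt
Igf2bp1 held 3 sites and the other 4 genes 1 each. The site occurred in 3.1% of 21010 genes with an annotated 3′ UTR, whose median UTR length was 960 bases. The UTRs of the 5 genes with a site were longer, at 1784 to 6337 bases, than those of the 5 without, at 201 to 1500 bases. Afp, Gpc3, Hmga1, Cd24a and Prom1 were without these 8 letters. Mature let-7 was not measured in these libraries.

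Each library held between 48740863 and 56629477 recovered reads, and the groups overlapped in depth. Prox1 (ENSMUSG00000010175), which checks the labels, had 4153 and 4664 normalized counts in Control. In Prox1 OE it had 48089.8 in replicate 1, 11113 in replicate 2 and 8231 in replicate 3. All 3 Prox1 OE libraries lay above both Control libraries, with replicate 1 far above the others. Prox1 had a log2 difference of 1.90 between groups (SE 0.66, limma adjusted p 0.061), with an adjusted p of 0.047 in edgeR and 0.065 in DESeq2. It was 1.12 without Prox1 OE replicate 1 and 2.39 without Prox1 OE replicate 3 (limma adjusted p 0.0055 and 0.032), and without any of the other 3 libraries the limma adjusted p was over 0.05 and reached 0.21. Replicate 1 also stood apart for some of the markers, and values without it are given beside them.

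Late Prox1 overexpression went with lower Cd24a and Prom1, the 2 abundant surface markers. The classical oncofetal genes were low in both groups and gave no call in the main limma fit. A normalized count here is the number of reads divided by the size factor of its library, and a gene was tested with limma on log2(normalized count + 1) when its mean over the 5 libraries was at least 10. Of the 10 markers 8 were tested, and Igf2bp1 and Lin28b lay under that level. Of the 8, 2 had a limma adjusted p under 0.05, both lower in Prox1 OE, whereas 33.3% of all 17105 genes tested were called, 17.1% higher and 16.2% lower. With total counts as library sizes 1472 genes were called higher and 6856 lower, in place of 2933 and 2769. Without Control replicate 1, Control replicate 2 or Prox1 OE replicate 1 the genes called numbered 1511, 2499 and 7494 in place of 5702, so that the background itself moved with single libraries. With 8 genes, 2 lower calls against 16.2% over all genes are too few to set the markers apart. No marker was called higher in the main limma fit, and the count higher was also 0 there at an unadjusted limma p under 0.05. A limma fit with the replicate block called 1 marker higher, Afp at 0.98 (limma adjusted p 0.029). With edgeR and with DESeq2 on recovered reads 2 markers were lower and 0 higher, where edgeR called 33.7% of all genes (18% higher, 15.7% lower) and DESeq2 38.9% (20.3% higher, 18.6% lower). The median log2 fold change of the 8 was -0.68, against -0.02 over all genes. Groups did not overlap for 4 of the 8 markers (Cd24a, Prom1, Igf2bp2 and Hmga2), as for 63.3% of all genes tested.

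**Figure D1:**
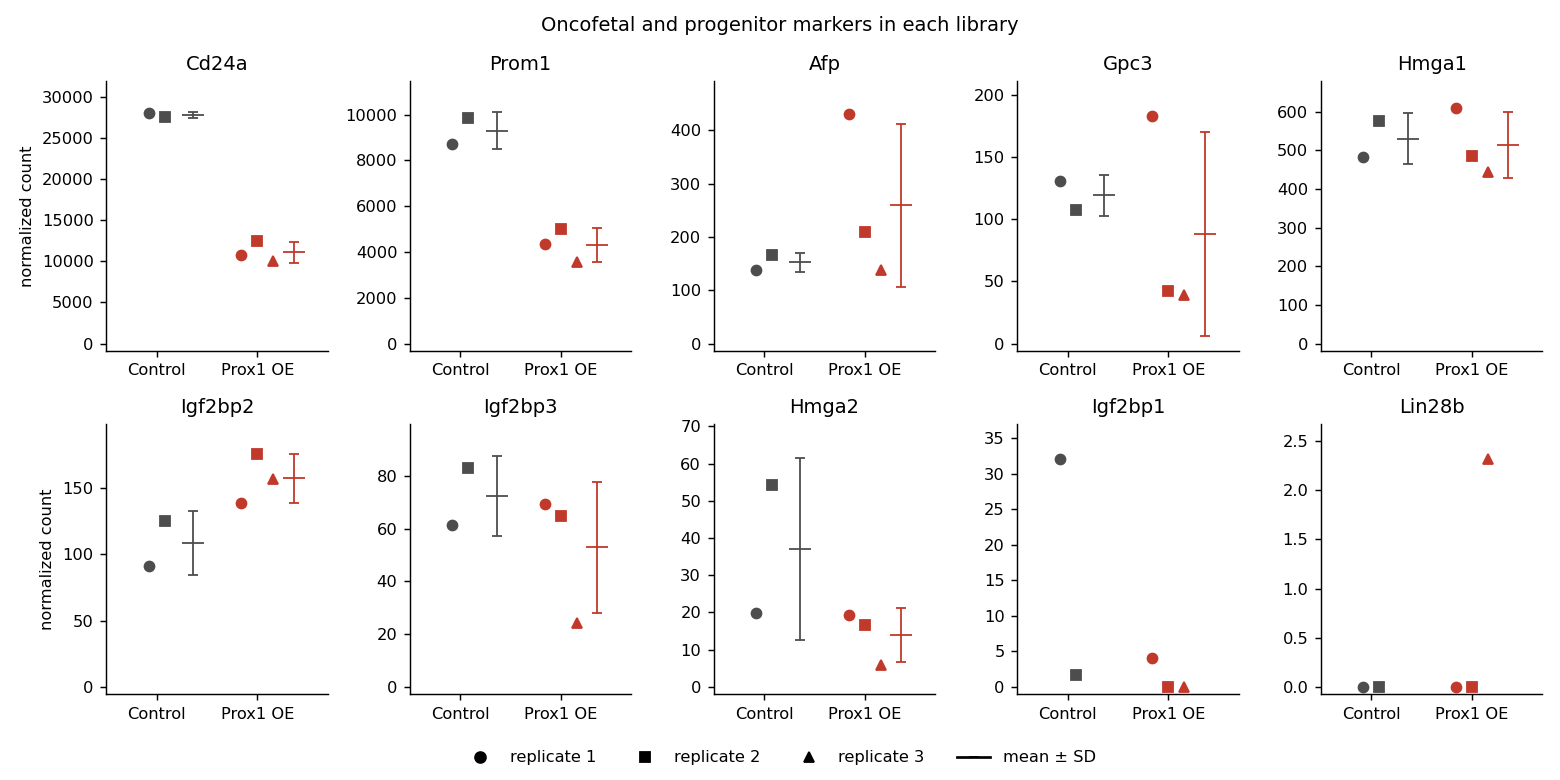
Normalized counts (y axis, 1 scale per gene) of the 10 markers in the Control (gray) and Prox1 OE (red) libraries, with a symbol for each replicate and, for the 8 tested genes, the mean and SD beside the points. Cd24a and Prom1 separate the groups by wide gaps, Afp and Gpc3 are highest in Prox1 OE replicate 1, and Lin28b has reads in 1 library.

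The markers fell into tiers of abundance that spanned several orders of magnitude. Levels were compared between genes as normalized counts per kb of exon, with all annotated exons of a gene merged. In Control the order was Cd24a at 10752 ± 134 (SD, n = 2), Prom1 at 1296 ± 112, Hmga1 at 249 ± 30.8, Afp at 45.2 ± 5.55 and Gpc3 at 44.3 ± 6.04 normalized counts per kb. Below these came Igf2bp2 at 14.6 ± 3.27, Igf2bp3 at 8.87 ± 1.86, Hmga2 at 5.46 ± 3.61 and Igf2bp1 at 1.74 ± 2.22 (SD, n = 2), with Lin28b at 0. Afp and Gpc3 overlapped in their Control values, as did Igf2bp3 with Hmga2 and Hmga2 with Igf2bp1. The same order of mean levels per kb held in Prox1 OE, from Cd24a at 4299 ± 488 (SD, n = 3) and Prom1 at 599 ± 101 down to Hmga2 at 2.05 ± 1.06. By mean normalized count Cd24a ranked 391 and Prom1 1442 of 17105 genes tested, whereas Afp ranked 11748 and Gpc3 12958. The 2 progenitor surface markers were thus abundant in these tumors and the fetal genes sparse.

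**Figure D2:**
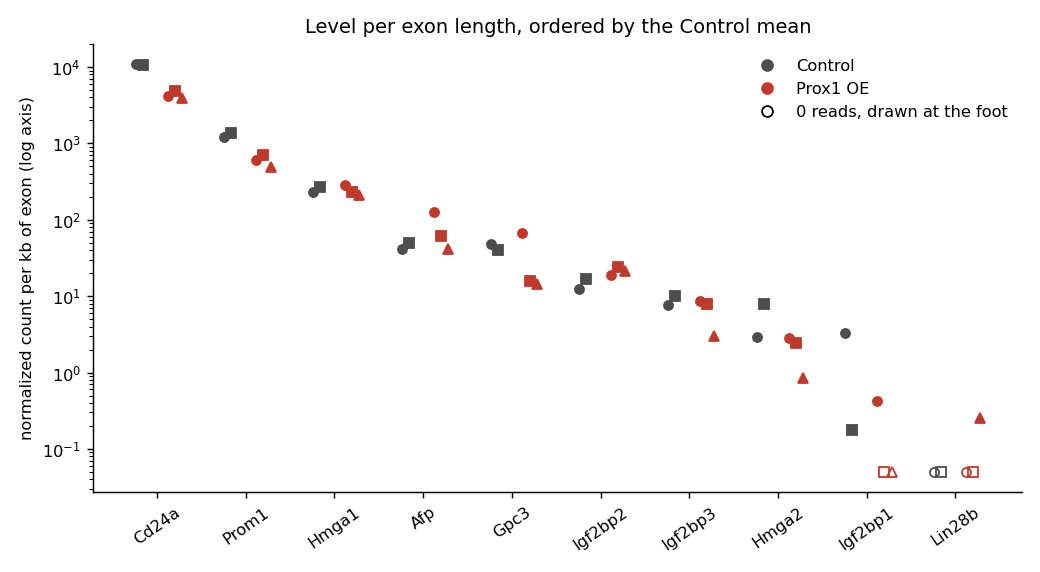
Normalized count per kb of merged exon (log axis) for the 10 markers in each library, Control in gray and Prox1 OE in red, ordered by the Control mean, with 0 reads drawn as open symbols at the foot. Levels run from about 10752 for Cd24a in Control to 0 reads of Lin28b in 4 of the 5 libraries.

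Cd24a, which encodes a small sialylated surface protein of progenitors, bile duct cells and some blood cells, was the most abundant marker and fell 2.50-fold. Cd24a (ENSMUSG00000047139, mm10 chromosome 10, 43578284 to 43584265, plus strand) had 27983 and 27495 normalized counts in Control replicates 1 and 2. It had 10779, 12476 and 10016 in Prox1 OE replicates 1, 2 and 3. The Control libraries were close to each other and every Prox1 OE library lay far under them, at 0.40 times the Control mean on average. The means were 27739 ± 345 (SD, n = 2) and 11090.2 ± 1259 (SD, n = 3), which differed by -1.33 on the log2 scale (SE 0.14, 95% interval -1.65 to -1.01, limma adjusted p 0.0024).

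Prom1, a cholesterol-binding protein of membrane protrusions, fell 2.16-fold. Prom1 (ENSMUSG00000029086, chromosome 5, 43993620 to 44102032, minus strand) had 8726 and 9865 normalized counts in Control replicates 1 and 2 and 4335, 5011 and 3557 in Prox1 OE replicates 1, 2 and 3. The groups were separated, with the highest Prox1 OE library well under the lowest Control library. The means were 9295 ± 805 (SD, n = 2) and 4301 ± 728 (SD, n = 3), which differed by -1.12 on the log2 scale (SE 0.16, 95% interval -1.50 to -0.75, limma adjusted p 0.0035). Both calls held under other size factors, pseudocounts, filters and tools, with a replicate block and with each library left out, with adjusted p of up to 0.022 for Cd24a and 0.028 for Prom1. They did not hold relative to the driver genes of the tumors, as described with those genes. In bulk tissue fewer cells of a type and less RNA per cell cannot be told apart.

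**Figure D3:**
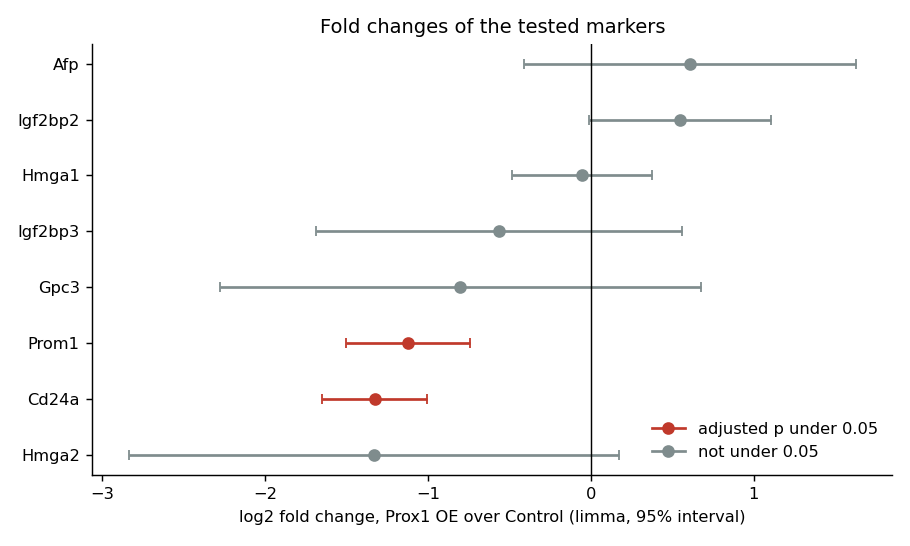
Log2 fold change of Prox1 OE over Control for the 8 tested markers on the log2(normalized count + 1) scale, with 95% intervals from limma, red where the adjusted p is under 0.05. The intervals of Cd24a (-1.65 to -1.01) and Prom1 (-1.50 to -0.75) lie wholly under 0, and the other 6 reach across it.

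The ratio of Prom1 to Cd24a overlapped between the groups. Prom1 was 0.312 and 0.359 of Cd24a in Control and 0.402, 0.402 and 0.355 with Prox1 OE, a log2 difference of 0.21 (exact permutation p 0.3, two-sided, where the smallest p that 2 against 3 libraries allow is 0.1). Both were also set against Epcam, an epithelial adhesion protein that bile duct cells make. The ratio of Prom1 to Epcam was 1.01 and 1.19 in Control and 1.20, 0.977 and 1.01 in Prox1 OE, and the groups overlapped (exact permutation p 0.8). The ratio of Cd24a to Epcam was 3.23 and 3.33 in Control and 2.99, 2.43 and 2.85 in Prox1 OE, without overlap (log2 difference -0.26, exact permutation p 0.2). Against the bile duct keratin Krt19 both ratios were higher in every Prox1 OE library. The ratio of Prom1 to Krt19 went from 1.03 and 0.914 in Control to 2.64, 2.55 and 1.99 in Prox1 OE, and that of Cd24a to Krt19 from 3.31 and 2.55 to 6.56, 6.34 and 5.61. The log2 differences of these ratios were 1.29 and 1.08, each with an exact permutation p of 0.1, the smallest this design can give.

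The tumor-driving genes moved with them, although the Akt1 call was lost without Control replicate 1 (-1.02). Akt1 and Notch1, whose counts may hold reads of the plasmids and of the mouse genes, changed by -1.05 and -1.19 on the log2 scale (limma adjusted p 0.0057 and 0.0046). Divided by the geometric mean of both drivers, library by library, Prom1 was 0.318 and 0.384 in Control and 0.297, 0.407 and 0.352 in Prox1 OE. Cd24a was 1.02 and 1.07 in Control and 0.737, 1.01 and 0.992 in Prox1 OE. Prom1 thus overlapped between groups on this scale, and Cd24a was lower in Prox1 OE by a narrow margin. The log2 difference of the ratio was -0.0013 for Prom1 (exact permutation p 1.0) and -0.21 for Cd24a (exact permutation p 0.4). When the whole table was scaled to these 2 genes, a setting chosen after seeing the data, the calls of both markers were lost (limma adjusted p 0.52 for Cd24a and 0.996 for Prom1). Afp, Igf2bp2 and Hmga1 were then called higher, at 1.73, 1.67 and 1.07 on the log2 scale. That scaling raised the median of all genes to 1.11 and called 12756 genes higher and 233 lower, so its directions are relative to the drivers. The share of driver-carrying cells was not measured, and its part in the result was not tested.

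**Figure D4:**
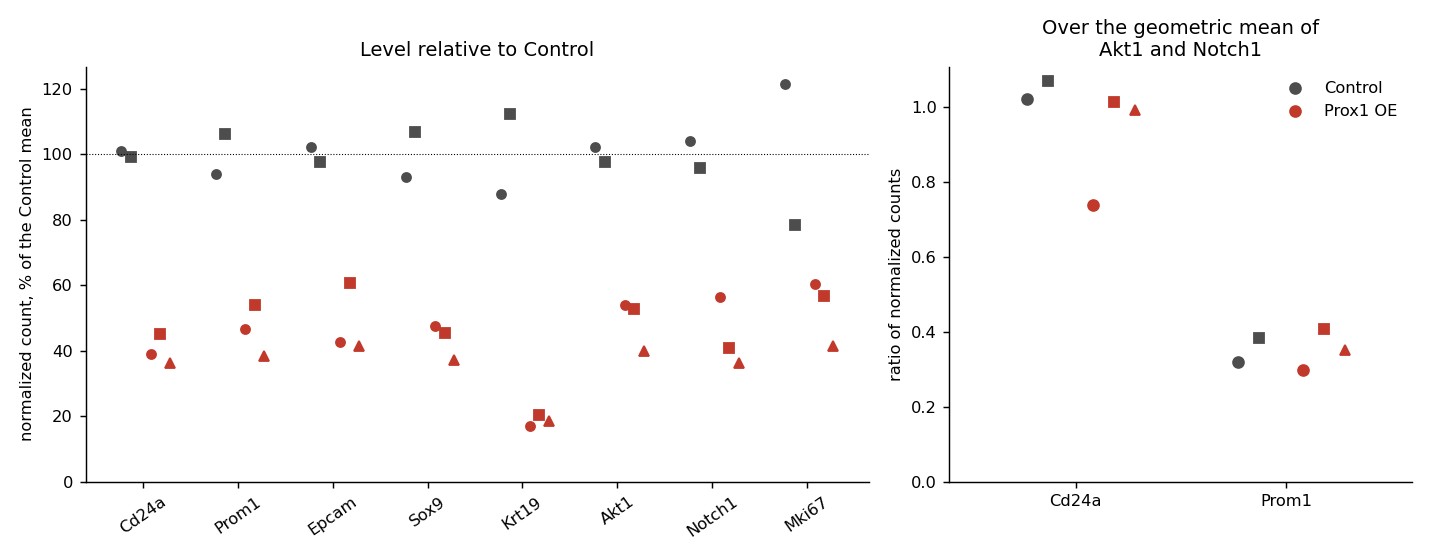
Left, normalized counts as a percent of the Control mean for Cd24a, Prom1, 3 bile duct genes, the 2 driver genes and the proliferation gene Mki67; right, the ratio of Cd24a and Prom1 to the geometric mean of Akt1 and Notch1, each point a library (Control gray, Prox1 OE red). On the left all Prox1 OE points lie under the Control points, and on the right the groups overlap for Prom1 and lie close together for Cd24a.

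Other markers of liver progenitors and cancer stem cells mostly fell as well. Of 26 tested genes on that list, 16 were called lower and 1 higher, with a median log2 fold change of -0.60. That is 65.4% of the list, against 33.3% of all genes tested. These directions, like those of the other lists, turn for many genes when the table is scaled to Akt1 and Notch1. The keratins Krt7 and Krt19 changed by -2.50 and -2.41 on the log2 scale, and Kit, the receptor for stem cell factor, by -1.41. Epcam went from 8657 and 8268 normalized counts in Control to 3606, 5131 and 3515 in Prox1 OE, or -1.07 on the log2 scale (limma adjusted p 0.0052). Sox9, a transcription factor of the bile duct and of progenitors, changed by -1.21 (limma adjusted p 0.0026). Among relatives of prominin and of sialomucins, 3 of 15 tested genes were called higher and 3 lower (median -0.12), a share of 40% that is near the 33.3% of all genes. Podxl, a sialomucin of the apical membrane, changed by -1.50 on the log2 scale, Ttyh1, a membrane protein related to the prominins, by -0.88 and Cd52, a small surface protein of lymphocytes, by 0.71. Prom2, the paralog of Prom1, was scarce, with 30.4 and 26.3 normalized counts in Control and 9.20, 8.26 and 6.94 in Prox1 OE (log2 fold change -1.69, limma adjusted p 0.020). The calls of Prom2 (-1.59 and -1.79) and Ttyh1 (-0.90 and -0.85) were lost without Control replicates 1 and 2, that of Ttyh1 also without Prox1 OE replicate 2 (-0.97), and that of Cd52 without Control replicate 2 (0.48).

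Bile duct and blood cell markers were set beside these genes because both carry Cd24a. Of 20 cholangiocyte markers tested, 15 were called lower, with a median log2 fold change of -1.11, led by Krt7, Krt19 and the chloride channel Cftr (-1.92). This list shares genes with the progenitor list, Krt7 and Krt19 among them, so the counts of both lists are not separate. Their summed level was 823512 to 894235 normalized counts in Control and 554755 to 747577 in Prox1 OE, but Spp1, a secreted phosphoprotein that was not called, made up 86.5% to 92.1% of it. Without Spp1 the sum was 109486 to 111502 in Control and 45437 to 58752 in Prox1 OE. Neutrophil markers showed no call in 9 tested genes with limma (0 at an unadjusted p under 0.05 and 0 with edgeR and DESeq2), and their sum was 53101 to 68843 in Control and 34787 to 70456 in Prox1 OE. Of that sum Lcn2, which other cells also make, took 96.8% to 98.6%, and without it the range was 943 to 1384 in Control and 1104 to 1471 in Prox1 OE. B cell and plasma cell genes were called higher for 3 of 10 tested (30%) and T cell genes for 5 of 10 (50%), with 0 lower in either list. Over all genes 17.1% were called higher and 33.3% in either direction. The B cell genes were Igkc, Ighm and Cd79b, at 1.43, 1.35 and 0.90 on the log2 scale. The B cell sum was 1006 to 1032 in Control and 1351 to 2032 in Prox1 OE, and the T cell sum 499 to 619 and 767 to 1056. The B and T cell sums were thus higher in every Prox1 OE library, and the neutrophil sums overlapped between groups with and without Lcn2. The calls of Igkc (1.18), Ighm (1.48) and Cd79b (1.10) were lost without Control replicate 1, those of Ighm (1.22) and Cd79b (0.71) without Control replicate 2, those of Igkc (1.38) and Cd79b (0.94) without Prox1 OE replicate 2 and that of Cd79b (0.93) without Prox1 OE replicate 3.

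The promoter of Prom1 is shown since it is the called marker with an entry in the RefSeq promoter table, which held 8 of the 10 genes. The window runs from 250 bases before to 50 bases after the start site (GRCm38.p6). Promoters were searched on both strands for TGGGAA, the core bound by RBPJ, the DNA-binding partner of NICD, for GTTAAT, a part of the motif of the hepatocyte factor HNF1, and for the TATA box TATAAA. Capitals mark a match to one of these 3 motifs, here TGGGAA on the opposite strand.
Prom1, chr5:44101687-44101986, minus strand: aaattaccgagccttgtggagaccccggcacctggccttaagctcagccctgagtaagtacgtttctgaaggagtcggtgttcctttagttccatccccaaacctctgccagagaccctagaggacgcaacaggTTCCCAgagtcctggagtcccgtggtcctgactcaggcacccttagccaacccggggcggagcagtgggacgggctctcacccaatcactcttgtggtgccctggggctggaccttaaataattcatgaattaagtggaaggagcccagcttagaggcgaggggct
TGGGAA occurred in 25.6% of 32851 promoters of this length, so that a single match is common. A further Prom1 start site in the table was without these 3 motifs.

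Afp, the fetal counterpart of albumin, was not called in the main fit, and its value depended on which Prox1 OE library was left out. Afp (ENSMUSG00000054932, chromosome 5, 90490737 to 90508907, plus strand) had 139 and 165 normalized counts in Control replicates 1 and 2 and 431, 209 and 138 in Prox1 OE replicates 1, 2 and 3. Replicate 1, the library with the most Prox1, was the highest, and replicate 3 was level with the lower Control library, so that the groups overlapped. The fitted log2 difference was 0.61 (SE 0.44, 95% interval -0.41 to 1.63, limma adjusted p 0.31), 0.16 without Prox1 OE replicate 1 and 0.98 without Prox1 OE replicate 3 (limma adjusted p 0.64 and 0.091). A fit with the replicate block, which takes nothing from Prox1 OE replicate 3, also gave 0.98. Afp was called higher in it (limma adjusted p 0.029), but no label ties the replicate numbers between groups.

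Neighbors and regulators of Afp moved in both directions. Of 28 tested genes at the locus or known to act on it, 8 were called higher and 9 lower (median log2 fold change -0.31), or 60.7% against 33.3% of all genes. Alb, which lies next to Afp, rose by 1.69 on the log2 scale (limma adjusted p 0.043), a call lost when any of the 5 libraries was left out (1.32 to 2.06), and Afm, a vitamin E binding protein of the same cluster, one of 1.58 (limma adjusted p 0.0039). Afp was a small share of Alb, and the groups overlapped in it. It stood at 0.0289% and 0.0207% of Alb in Control and at 0.0218%, 0.0134% and 0.00531% in Prox1 OE, a log2 difference of -1.08 (exact permutation p 0.3). Zbtb20, a zinc finger repressor of Afp in the adult liver, was lower, from 5680 and 6112 normalized counts in Control to 3884, 3784 and 3704 in Prox1 OE (log2 fold change -0.64, limma adjusted p 0.0053). Zhx2, a further postnatal repressor of Afp, had a log2 difference of -0.40 (limma adjusted p 0.087). Onecut1, a transcription factor of hepatoblasts and bile duct precursors, changed by -1.87 (limma adjusted p 0.016). Without either Control library the calls of Zbtb20 (-0.69 and -0.58) and Onecut1 (-1.73 without Control replicate 1) were lost.

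The Afp promoter held a GTTAAT motif and a TATA box, shown in capitals. GTTAAT occurred in 7.1% and TATAAA in 13.6% of all promoters of this length. The longer GTGGGAA and the full palindromic HNF1 motif were also searched for and were in none of the 10 marker promoters, and CAAAG, in 53.9% of all promoters, was in 4 of them. The CCAAT box (CCAAT, in 37.4% of all promoters) matched once each in Prom1, Afp, Igf2bp3, Lin28b and Gpc3, the E-box (CACGTG, in 7.2%) in Igf2bp3 and Lin28b, and the GC box (GGGCGG, in 35.7%) in Prom1, Hmga2, Igf2bp2, Gpc3 and both Hmga1 promoters, and these matches are not in capitals.
Afp, chr5:90490464-90490763, plus strand: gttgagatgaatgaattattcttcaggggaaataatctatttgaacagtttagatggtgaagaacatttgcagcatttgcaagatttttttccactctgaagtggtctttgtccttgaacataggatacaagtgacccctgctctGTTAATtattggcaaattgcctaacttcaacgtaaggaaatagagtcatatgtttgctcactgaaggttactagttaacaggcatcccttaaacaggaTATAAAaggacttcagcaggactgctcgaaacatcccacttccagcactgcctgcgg

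Gpc3, a glypican that binds growth factors through heparan sulfate, split the Prox1 OE libraries. Gpc3 (ENSMUSG00000055653, chromosome X, 52272426 to 52613950, minus strand) had 131 and 108 normalized counts in Control and 183, 42.5 and 39.3 in Prox1 OE replicates 1, 2 and 3. Replicate 1 was above both Control libraries and replicates 2 and 3 under both. The fitted log2 difference was -0.80 (SE 0.63, 95% interval -2.28 to 0.68, limma adjusted p 0.36). Without Prox1 OE replicate 1 it was -1.51 and was called (limma adjusted p 0.0073), so that the result for Gpc3 rested on this library.

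Other glypicans differed among themselves. Gpc6 fell, from 509 and 492 normalized counts in Control to 190, 53.1 and 102 in Prox1 OE (log2 fold change -2.30, limma adjusted p 0.010), whereas Gpc1 and Gpc4 had log2 differences of 0.44 (limma adjusted p 0.055) and -0.31 (limma adjusted p 0.085). Of 26 tested genes for glypicans, syndecans and heparan sulfate enzymes, 3 were called higher and 7 lower (median -0.10), or 38.5%, near the 33.3% of all genes. Sulf1, a sulfatase that trims heparan sulfate outside the cell, changed by -2.15 on the log2 scale (limma adjusted p 0.0019). Notum, an enzyme that removes lipid from Wnt proteins and a target of Wnt signaling, changed by 2.09 (limma adjusted p 0.0071). Without Control replicate 1 the calls of Gpc6 (-2.27) and Notum (1.67) were lost.

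Fetal liver genes outside the 10 markers did not share a direction. Of 21 tested, 5 were called higher and 7 lower (57.1%, against 33.3% of all genes), with a median log2 fold change of -0.11. H19, an imprinted noncoding RNA of the fetal liver, rose from 243 and 314 normalized counts in Control to 4882, 1838 and 1458 in Prox1 OE, a log2 difference of 3.09 (limma adjusted p 0.0039). Its highest library was again Prox1 OE replicate 1. Dlk1, a Notch-related surface protein of hepatoblasts, fell from 139 and 189 to 48.1, 36.6 and 18.5, a log2 difference of -2.30 (limma adjusted p 0.0073). Igf2, the fetal growth factor that shares a locus with H19, had 0 to 3 reads per library, which is not above the floor of 3 reads. Cdh17, a cadherin of fetal liver and intestine, changed by -3.09 on the log2 scale (limma adjusted p 0.017) and Meg3, an imprinted noncoding RNA beside Dlk1, by 1.52 (limma adjusted p 0.018). The Meg3 call was lost without Control replicate 1 (1.00) or Prox1 OE replicate 2 (1.48), and Meg3 was at 2.04 without Control replicate 2. The calls of Dlk1 (-2.08) and Cdh17 (-2.44) were lost without Control replicate 2, and that of Cdh17 (-2.95) also without Prox1 OE replicate 2.

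**Figure D5:**
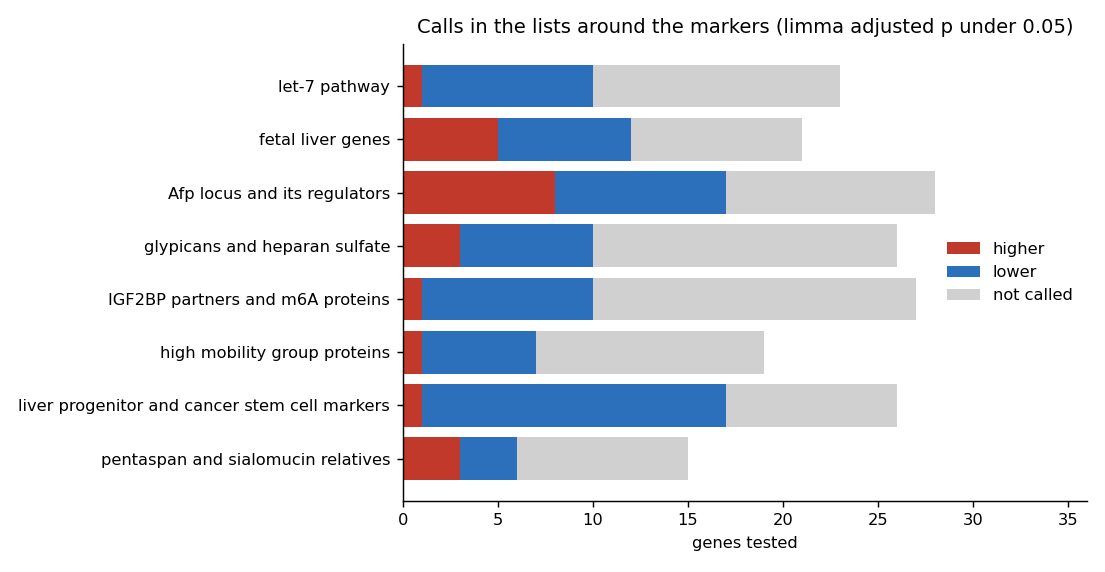
Number of tested genes called higher (red), called lower (blue) or not called (gray) by limma in 8 lists of genes around the 10 markers, which are themselves left out. The progenitor list has the most lower calls, 16 of 26, and the Afp locus list the most higher calls, 8 of 28.

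The 3 IGF2BP genes, whose proteins bind and stabilize messenger RNAs in the fetus, lay at low levels and showed no call. Igf2bp2 (ENSMUSG00000033581, chromosome 16, 22059009 to 22163299) had 91.2 and 125 normalized counts in Control and 139, 176 and 157 in Prox1 OE. Every Prox1 OE library was above both Control libraries, but the log2 difference of 0.55 (SE 0.24, 95% interval -0.01 to 1.11) missed the threshold, with a limma adjusted p of 0.12. With the total count as library size it was 0.12. Igf2bp3 (ENSMUSG00000029814, chromosome 6, 49085223 to 49214957) had 61.6 and 83.1 in Control and 69.5, 64.9 and 24.3 in Prox1 OE. Its groups overlapped, with replicate 3 alone at a low value, and the log2 difference was -0.57 (SE 0.48, limma adjusted p 0.39), or -0.09 without that library. Of its exon bases 18.7% lie opposite exons of Malsu1, a mitochondrial ribosome factor that changed by 0.66 on the log2 scale (limma adjusted p 0.033). The counting of strand was not stated, and reads of both genes cannot be told apart there. The Malsu1 call was lost when either Control library or Prox1 OE replicate 2 or 3 was left out (0.57, 0.74, 0.68 and 0.50).

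Igf2bp1 and Lin28b were at the edge of detection. Igf2bp1 (ENSMUSG00000013415, chromosome 11, 95957163 to 96005940) had 39 and 2 reads in Control replicates 1 and 2 and 4, 0 and 0 reads in Prox1 OE replicates 1, 2 and 3. A single Control library therefore carried nearly all of its reads. With no filter on low values the fitted log2 difference was -2.46 (SE 1.20, limma adjusted p 0.23), and Igf2bp1 was not called. Lin28b (ENSMUSG00000063804, chromosome 10, 45376620 to 45486395) had 2 reads in Prox1 OE replicate 3 and 0 in the other 4 libraries. A count of 0 allows up to 3 reads, or 2.46 to 3.54 normalized counts by library, and this covers counting error only. Its paralog Lin28a had 0 to 4 reads per library, and neither Lin28 gene was detectable above the floor in both groups.

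The machinery and targets of let-7 were measured beside them. Of 23 tested genes on this list, 9 were called lower and 1 higher (43.5%, against 33.3% of all genes), with a median log2 fold change of -0.44. Mycn, a growth-promoting relative of Myc, changed by -1.46 on the log2 scale (limma adjusted p 0.0038), the cyclin Ccnd2 by -0.98 (limma adjusted p 0.0028) and Cdc34, a ubiquitin-conjugating enzyme, by 1.00 (limma adjusted p 0.0051). Among partners of IGF2BP proteins and factors of the RNA mark m6A, 9 of 27 tested genes were called lower and 1 higher (median -0.31), or 37%, near the share of all genes. Cd44, a hyaluronan receptor and IGF2BP target, went from 3129 and 4156 normalized counts in Control to 1583, 1267 and 1420 in Prox1 OE (log2 fold change -1.35, limma adjusted p 0.0026). Fscn1, an actin-bundling protein, changed by -1.03 and Myc by -0.74 (limma adjusted p 0.0049 and 0.0066). The gene called higher among these partners was H19, which is also counted among the fetal liver genes. Of the 5 markers with a let-7 site only 3 were tested (Igf2bp2, Igf2bp3 and Hmga2), and that none was called says little where 33.3% of all genes were. The Fscn1 call was lost without Control replicate 1 (-0.83) and the Myc call without Control replicate 2 (-0.63).

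Hmga1 and Hmga2 encode small proteins that bend AT-rich DNA, and neither was called. Hmga1 (ENSMUSG00000046711, chromosome 17, 27556497 to 27563674, plus strand) had 484 and 576 normalized counts in Control and 608, 486 and 444 in Prox1 OE. The groups overlapped widely and differed by -0.05 on the log2 scale (SE 0.18, 95% interval -0.48 to 0.38, limma adjusted p 0.84). The sign of this value turned with the scaling, to 0.023 with upper-quartile factors and to 1.07 relative to Akt1 and Notch1. Hmga2 (ENSMUSG00000056758, chromosome 10, 120361275 to 120476469, minus strand) had 19.7 and 54.25 in Control and 19.4, 16.5 and 5.79 in Prox1 OE. The lower Control library and Prox1 OE replicate 1 were nearly level, although the groups did not overlap. Its log2 fold change was -1.33 (SE 0.64, 95% interval -2.84 to 0.17, limma adjusted p 0.15), and either Control library moved it, to -2.04 without Control replicate 1 and to -0.62 without Control replicate 2. Hmga1 has processed copies in the genome, and how reads shared between copies were counted was not stated.

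Among other high mobility group proteins, 6 of 19 tested genes were called lower and 1 higher (median log2 fold change -0.31), or 36.8%, near the 33.3% of all genes. Hmgb2, a chromatin protein of dividing cells, changed by -0.75 (limma adjusted p 0.018), and Tox3 and Hmgxb3 by -0.90 and -0.58. Proliferation genes fell, with 22 of 25 tested called lower and a median log2 fold change of -0.77. Mki67, a marker of cycling cells, went from 17387 and 11222 normalized counts in Control to 8655, 8101 and 5934 in Prox1 OE (log2 fold change -0.90, limma adjusted p 0.022). Bub1, Top2a and Kif11, which act in chromosome segregation, changed by -1.21, -1.09 and -1.07. The summed proliferation level was 83546 to 115048 normalized counts in Control and 49206 to 62639.9 in Prox1 OE, and its part in the results for the markers was not tested. Without Control replicate 1 the calls of Mki67 (-0.59), Hmgb2 (-0.53), Bub1 (-0.89), Top2a (-0.80), Kif11 (-0.83), Tox3 (-0.87) and Hmgxb3 (-0.53) were lost. Those of Tox3 (-0.92) and Hmgxb3 (-0.62) were also lost without Control replicate 2, those of Mki67 (-0.96), Tox3 (-0.91) and Hmgxb3 (-0.55) without Prox1 OE replicate 2, and that of Hmgxb3 (-0.48) without Prox1 OE replicate 3.

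Markers of other liver cells were measured beside these, and their calls stand against 33.3% over all genes. Hepatocyte markers were called higher for 18 of 24 tested genes (median log2 fold change 1.81), led by the amino acid enzymes Hal, Hpd and Tat at 2.90, 2.81 and 2.72. Macrophage and Kupffer cell genes were higher for 6 and lower for 1 of 15 (Clec4f, Cd5l and C1qc at 1.58, 1.39 and 0.91), and endothelial genes higher for 6 and lower for 1 of 14 (Clec4g, Fcgr2b and Stab2 at 2.61, 1.04 and 1.04). Stellate cell and fibroblast genes were called lower for 5 and higher for 2 of 15 (Acta2 and Col1a1 at -1.32 and -1.23, and the retinol enzyme Lrat at 1.09). Of erythroid and hematopoietic genes, 2 of 13 were higher and 1 lower (Alas2 at 1.34 and the transferrin receptor Tfrc at -0.82), a share of 23.1% that is not above the background, and the embryonic globins Hbb-y and Hbb-bh1 had 0 reads in every library, which allows up to 3. The hepatocyte sum was 1529169.8 to 2240359.5 normalized counts in Control and 4529446 to 6575010.1 in Prox1 OE. The calls of Tat (2.41), Clec4f (1.10) and Stab2 (0.81) were lost without Control replicate 1, that of Alas2 (1.03) without Control replicate 2 and that of Tat (2.56) without Prox1 OE replicate 2.

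The genes closest to Cd24a and Prom1 in pattern were named by the Pearson correlation of log2(normalized count + 1) over the 5 libraries, among 12969 genes with a mean of at least 100. For Cd24a they were Casc3 (r = 0.9996) and Sf3a1 (r = 0.9995), which had smaller log2 fold changes of -0.30 and -0.45. For Prom1 they were Usp49 (r = 0.9999) and Creb5 (r = 0.9997), with -1.14 and -1.49. Cd24a and Prom1 had a correlation of 0.985 with each other. Such values were not particular to the named genes. Of the 12969 genes, 151 had a correlation over 0.99 with Cd24a and 103 with Prom1. These correlations rest on 5 libraries in 2 separate groups.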

How the data were processed

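Bulk RNA-seq libraries of 5 liver tumors (2 Control, 3 Prox1 OE, per the labels) were made by the authors with the dUTP protocol, sequenced as paired reads of 100 bases and mapped with STAR to mm10. The counting tool is not given in the sources used here. The deposited values are a signal, the read count of each gene scaled by the size factor that DESeq2 gave its library. Whole reads were recovered from the step that 1 read makes in a library (100% of values came out whole, tolerance 0.001 reads). No per-sample column was left unassigned (0). A deposited table of the authors' own comparison (mean, shrunken fold change, p-values) was not used.

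Groups were compared with limma 3.58.1 run under R 4.3.3 (lmFit, eBayes with trend) on log2(normalized count + 1), a scale that understates changes of low genes, for 17105 genes with a mean of at least 10, two-sided, with Benjamini-Hochberg adjustment over all of them and a threshold of 0.05. No covariate was used. Alternatives were TMM and upper-quartile factors, the total count, pseudocounts of 0.1 and 10, no filter, a mean of at least 50, limma without trend, edgeR 4.0.16 and DESeq2 1.42.0 on recovered reads, a replicate block, each library left out and, added after seeing the data, a scaling to Akt1 and Notch1. Ratios between genes were also chosen after seeing the data, and promoters were searched for 9 motifs. The procedure was tested on simulated counts. Gene names and coordinates came from GENCODE M21 (GRCm38, the sequence of mm10), which matched 55137 identifiers (99.5%).

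Named were the 10 markers, Prox1, a fixed set of 17 partners and relatives, and in each list the 3 called genes with the largest change and a mean of at least 100, and the 2 genes most correlated with each called marker. Akt1, Notch1, Malsu1, Spp1, Lcn2, Hbb-y, Hbb-bh1 and Gm43449 were named after their values were seen. The markers and lists were chosen with earlier results of these data known.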

Additional observations from a re-analysis of the deposited data

How the results depend on the processing

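Cd24a and Prom1 stayed lower with an adjusted p under 0.05 under other size factors, pseudocounts, filters and tools, with the replicate block and without each library, fits without a Control library included, where the lone library of that arm was assumed to vary like the others. Scaled to Akt1 and Notch1, a setting chosen after seeing the data that adds 1.12 to each log2 fold change by construction, both calls were lost, at -0.21 for Cd24a and -0.0013 for Prom1. The markers were then 3 higher and 0 lower, namely Afp (1.73), Igf2bp2 (1.67) and Hmga1 (1.07), and Gpc3 (0.32) and Igf2bp3 (0.56) changed sign. Pathway list genes were 116 higher and 8 lower in that setting, and marker list genes 102 higher and 4 lower. Of other named genes, the 16 that lay between -1.12 and 0 changed sign, which the shift fixes and which says nothing of their stability, namely Akt1 (0.073), Zhx2 (0.72), Zbtb20 (0.49), Epcam (0.049), Gpc4 (0.81), Hmgb2 (0.37), Myc (0.39), Mki67 (0.22), Ccnd2 (0.14), Fscn1 (0.089), Tox3 (0.22), Hmgxb3 (0.54), Ttyh1 (0.24), Tfrc (0.30), Top2a (0.036) and Kif11 (0.051). Using total counts as library sizes moved the all-gene median to -0.45, with Cd24a and Prom1 at -1.76 and -1.55. When a library was left out, 2 to 3 markers were lower and 0 higher. Gpc3 gained a call without Prox1 OE replicate 1 (-1.51) and ranged from -1.51 to -0.42, Afp from 0.16 to 0.98, Hmga1 from -0.18 to 0.071 and Hmga2 from -2.04 to -0.62. Hmga1 was at 0.023 with upper-quartile factors. The cause was not tested.

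Replicate numbers are shared between the groups without a label that ties them, and deviations within the 2 pairs had correlations of 0.14 and 0.016. A fit with the replicate block, which takes nothing from Prox1 OE replicate 3, called 1 marker higher, Afp at 0.98 (limma adjusted p 0.029), put Hmga1 at 0.042, and called 5262 genes in place of 5702.

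Of the pathway list genes 22 were higher and 65 lower. These were 13 and 121 with total counts, 15 and 39 without the trend, and 6 to 26 higher and 19 to 82 lower when a library was left out. Marker list genes (42 higher, 45 lower) ranged from 17 to 45 and 14 to 46 when a library was left out, and over the other settings reached 57 higher with DESeq2 and 64 lower with total counts. With a library left out, the lowest counts came without a Control library and the highest without Prox1 OE replicate 1. Leaving out the scaling to Akt1 and Notch1, of 943 values for the 59 other named genes 858 kept direction and call, 73 lost a call, 12 gained one and 0 changed sign. Low counts limit Igf2bp1, Lin28b, Hmga2 and Igf2bp3.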

Other observations

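A noncoding gene lies inside the span of Afp. Gm43449, annotated as antisense on the opposite strand and sharing 0 exon bases with Afp, had 18.9 and 20.3 normalized counts in Control and 63.4, 113 and 120 in Prox1 OE (log2 fold change 2.22, limma adjusted p 0.0049). Prox1 OE replicate 3, the library with the least Afp of that group, had the most Gm43449. Its difference from Afp was not tested, it was named after its values were seen, and its reads and those of unspliced Afp RNA cannot be told apart where strand was not stated.

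Prox1 OE replicate 1, the library with the most Prox1, also had the highest values of Afp, Gpc3, Hmga1 and H19 among the 5 libraries. That order was not tested, since 1 library defines it.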
